A study of Mus musculus with 4 samples.

Results

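Notch signalling passes between touching cells: a ligand of the Delta or Jagged family on one cell opens a Notch receptor on its neighbour, and the freed part of the receptor joins the DNA-binding protein RBPJ and switches on target genes, of which the Hey repressors are the best known in the heart. In the embryonic ventricle the pathway is known for its work in the endocardium, the endothelial lining of the chamber, where it acts in trabeculation and in the change of endocardial cells into cushion mesenchyme, and in arteries. The genes described here are 10 of the 55405 in the count matrices, taken by symbol: the receptors Notch1, Notch2 and Notch4, the ligands Dll4, Jag1 and Jag2, the Hey targets Hey1, Hey2 and Heyl, and Mfng, a Fringe glycosyltransferase that modifies Notch receptors. Another 61 genes of the pathway, in 6 lists, were followed beside them.

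The cells came from ventricles of mouse embryos at day E12.5, 3 days after tamoxifen at day E9.5. All embryos carried Cdh5(Pac)-CreER, a tamoxifen-dependent recombinase driven by an endothelial promoter, and Rosa26mTmG, a reporter whose recombined cells make EGFP in their membranes. Gata4 het embryos had 1 floxed and 1 normal copy of Gata4, a cardiac zinc-finger transcription factor, and Gata4 KO embryos had 2 floxed copies, so that the controls too could lose 1 copy in recombined cells. Each group had 2 libraries, called het 1, het 2, KO 1 and KO 2 after their labels, and whether each came from 1 embryo or several is not given. The p-values therefore measure only the spread between these libraries, and an exact permutation test of 2 against 2 cannot go below 0.333.

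The libraries held 137890971 to 190207638 UMIs in all, and 6785 to 22474 cells each were kept. Het 1 stood apart: its median depth was 4165.5 UMIs against 7087 to 14048 in the others, and 15987 of its cells fell in unnamed clusters, where the others had 711 to 1650. Pairs of libraries shared 23 to 103 barcodes, at most 0.686% of the smaller one. KO 2 had no UMI of the Y-linked gene Ddx3y in the 5 cell groups compared below, where the other libraries read 16.9 to 84.2 CPM.
Gata4 itself, in CPM (UMIs of a gene on the counts-per-million scale), was lower in the endocardial-like cells of both het libraries (119 and 104) than in those of the KO libraries (219 and 187). The floxed exons are not named in the labels, and a count of 3′ ends includes transcripts that lack an inner exon, so this level does not check the genotype. The matrices also hold 2 added sequences named after the floxed gene, whose extent is not given in the sources used here: FloxGata4 had no UMI in the endocardial-like cells of any library, and FloxGata4_ctrl read 2.37 and 1.44 CPM there in het and 4.93 and 2.49 CPM in KO libraries. EGFP read 1891 to 4416 CPM in the endocardial-like and vascular-like cells and 34.9 to 69.4 CPM in cardiomyocyte-like cells.

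Cells were grouped by clusters built without the 10 genes and named from marker lists. The endocardial-like cluster had 348, 620, 620 and 375 cells in het 1, het 2, KO 1 and KO 2, and Npr3, Emcn and Plvap were among its leading genes. A second endothelial cluster, led by Wnt4 and Stmn2, had endocardial markers above the other cells (mean log2 fold 1.38, against 2.68 in the endocardial-like cluster) but none among its 10 leading genes, so it was left unnamed and is called Wnt4-led; it had 720, 406, 259 and 112 cells. The vascular-like cluster, led by Fabp4 and Cldn5, had 326, 148, 160 and 77 cells. Cardiomyocyte-like cells numbered 3069, 4019, 6641 and 3539 in 7 clusters, one of which came almost only from het 1 (1989 of 1997 cells), and mesenchymal-like cells (Postn, Sox9) numbered 543, 1357, 967 and 691 in 2 clusters. Plvap, an endocardial marker, read 714 to 782 CPM in the endocardial-like cluster and 107 to 165 CPM in the vascular-like one, and Cldn5, a vascular marker, 14.2 to 19.3 against 198 to 227 CPM, so both names stand on markers present in every library.

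In GRCm38, by the GENCODE M21 annotation, Notch1 (ENSMUSG00000026923.15) lies on the minus strand of chromosome 2 from 26457903 to 26516663, Dll4 (ENSMUSG00000027314.6) on the plus strand of the same chromosome from 119325784 to 119335962 and Jag1 (ENSMUSG00000027276.7) on its minus strand from 137081456 to 137116644. Notch2 (ENSMUSG00000027878.11) and Hey1 (ENSMUSG00000040289.8) lie on chromosome 3, from 98013527 to 98150361 on the plus strand and from 8663359 to 8667256 on the minus strand. Notch4 (ENSMUSG00000015468.14) lies on the plus strand of chromosome 17 from 34564268 to 34588503. Jag2 (ENSMUSG00000002799.6) is on the minus strand of chromosome 12 from 112907819 to 112929776. Hey2 (ENSMUSG00000019789.9) is on the minus strand of chromosome 10 from 30832359 to 30842801, Heyl (ENSMUSG00000032744.4) on the plus strand of chromosome 4 from 123233556 to 123249875, and Mfng (ENSMUSG00000018169.12) on the minus strand of chromosome 15 from 78755882 to 78773475. Genes on the other strand overlap Notch1 (0610009E02Rik and Gm13568), Notch4 (Gm20462) and Dll4 (Gm14207), and the sources used here do not say whether counting used the strand, so reads of those partners may be included. Genes on the same strand overlap Notch1 (Mir6996), Notch2 (Gm42819 and Gm42820) and Jag2 (Mir6941), and strand would not separate their reads.

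Since Hey genes are read as Notch targets, the promoters were searched for GTGGGAA, the core of the site that RBPJ binds, on both strands, from 250 bases before to 50 after each RefSeq gene start (GRCm38.p6). A promoter was at hand for 7 of the 10 genes (Notch1, Notch2, Notch4, Dll4, Jag1, Jag2 and Hey2). Hey2 alone of the 7 held the motif, with 2 matches, 1 on each strand, where 6.38% of all 32851 promoters of that length held at least 1. The 2 stretches are shown because they carry these matches, in capitals, 5′ to 3′ on the gene's strand; the first ends just before the GENCODE start of Hey2 (chr10:30842802-30843033) and shows the match on the other strand as TTCCCAC, and the second spans the RefSeq start (chr10:30842769-30842798).
Hey2 upstream: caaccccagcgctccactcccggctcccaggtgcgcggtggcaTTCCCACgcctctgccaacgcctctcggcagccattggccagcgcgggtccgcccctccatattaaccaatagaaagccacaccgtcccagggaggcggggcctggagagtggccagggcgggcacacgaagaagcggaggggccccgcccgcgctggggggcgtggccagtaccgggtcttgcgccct
Hey2 start: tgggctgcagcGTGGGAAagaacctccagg
The first match begins 207 bases before the RefSeq start and the second 4 bases before it. A match of these letters is a description of the sequence and does not show that RBPJ is bound there.

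The levels of the 10 genes by cell class are given first, in CPM scaled within each class by the trimmed mean of M-values, as a description over the 4 libraries. Of the 3 receptors, Notch1 had the highest level in the endothelial and mesenchymal-like cells. It read 264 to 326 CPM in the Wnt4-led cluster, 249.7 to 306 in endocardial-like, 128.5 to 200.5 in vascular-like and 84.5 to 133 in mesenchymal-like cells, and the ranges of the first pair and of the last pair overlapped. Macrophage-like cells held 23.4 to 31.0 CPM of Notch1 and cardiomyocyte-like cells 1.38 to 2.81 CPM. Notch2 had another order: 55.1 to 68.9 CPM in mesenchymal-like cells, 22.1 to 33.1 in epicardial-like and 20.1 to 27.6 in macrophage-like cells, and 10.3 to 15.3 CPM in endocardial-like, 5.08 to 7.14 in cardiomyocyte-like and 2.13 to 9.53 in vascular-like cells. Notch4, a receptor mostly found on endothelium, read 47.4 to 69.9 CPM in vascular-like cells, 33.8 to 43.3 in endocardial-like cells and 9.92 to 23.3 in the Wnt4-led cluster, with no overlap between these 3, and at most 2.99 CPM in mesenchymal-like cells.

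Among the ligands, Dll4, the Delta ligand of arterial and sprouting endothelium, was read almost only in endothelial clusters. It stood at 54.1 to 103.4 CPM in vascular-like cells, 25.7 to 30.6 in endocardial-like cells and 3.44 to 8.95 in the Wnt4-led cluster, without overlap, and at most 0.844 CPM in each of the other 5 classes. Jag1 was highest in the Wnt4-led cluster (64.9 to 97.2 CPM), with no overlap with any other class. Mesenchymal-like (18.4 to 26.7), endocardial-like (12.8 to 19.9), epicardial-like (9.94 to 15.8) and vascular-like cells (7.22 to 14.97 CPM) followed, each range overlapping the next, and Jag1 was lowest of the heart classes in cardiomyocyte-like cells (4.18 to 5.35). Jag2 read 22.5 to 35.5 CPM in vascular-like cells and 4.47 to 31.2 in the Wnt4-led cluster, where it varied most between libraries, against 2.60 to 4.62 CPM in endocardial-like cells. Mfng stood at 70.4 to 89.8 CPM in vascular-like cells, 22.5 to 37.2 in the Wnt4-led cluster, 14.4 to 18.4 in macrophage-like cells and 12.1 to 18.3 in endocardial-like cells.

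The 3 Hey genes each had a different place. Hey1 read 14.8 to 43.6 CPM in vascular-like, 9.12 to 29.8 in endocardial-like and 16.5 to 25.9 in mesenchymal-like cells, all overlapping, and 1.11 to 1.91 CPM in cardiomyocyte-like cells. Hey2 was at 118 to 165 CPM in the Wnt4-led cluster and 94.9 to 112.6 CPM in cardiomyocyte-like cells, against 28.5 to 38.7 in epicardial-like, 19.9 to 31.9 in mesenchymal-like, 2.55 to 18.1 in vascular-like and 5.11 to 15.8 in endocardial-like cells. Heyl was the mesenchymal one, at 24.5 to 48.1 CPM in those cells, 2.30 to 3.38 in vascular-like cells and below 3 CPM in the endocardial-like, Wnt4-led and cardiomyocyte-like cells.

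**Figure D1:**
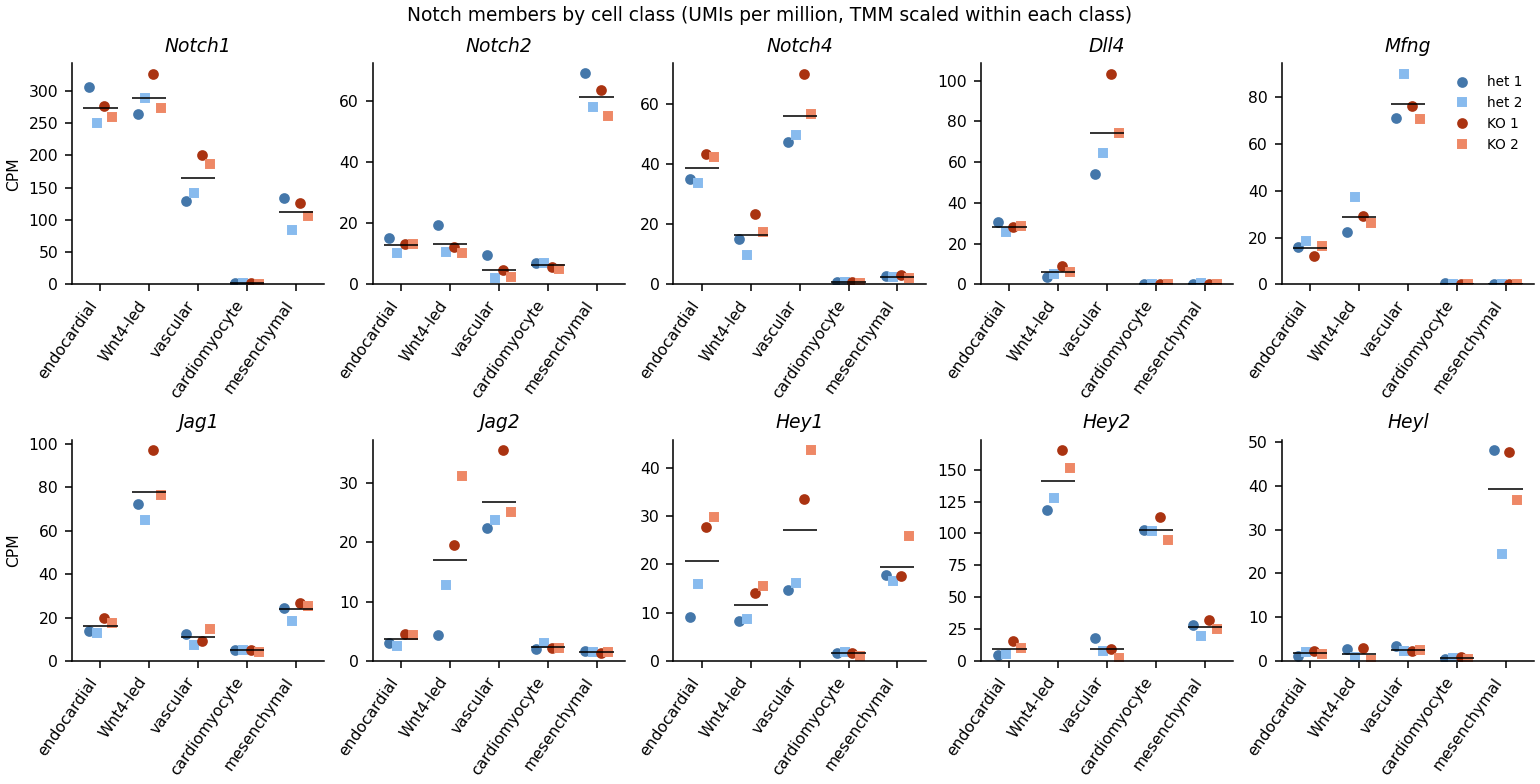
Levels of the 10 genes (vertical axes, CPM scaled within each class) in the 5 cell groups (horizontal axes). Points are libraries and black lines the mean of the 4. Notch1 is high in both endocardial-like and Wnt4-led cells, Dll4 and Mfng are highest in vascular-like cells, Hey2 is high in Wnt4-led and cardiomyocyte-like cells, and Heyl in mesenchymal-like cells.

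Set against each other within the same library, the endocardial-like and vascular-like cells differed in their Notch genes in one direction in all 4 libraries for 9 of the 10. Notch1, Notch2 and Jag1 were higher in endocardial-like cells in 4 of 4 libraries, with mean log2 ratios of 0.64 ± 0.38, 1.36 ± 0.59 and 0.42 ± 0.44 (SD, n = 4; log2 of CPM + 1). Notch4, Dll4, Jag2, Hey1, Heyl and Mfng were higher in vascular-like cells in 4 of 4 libraries, with mean log2 ratios from -0.47 ± 0.25 for Hey1 to -2.34 ± 0.22 for Mfng and -2.67 ± 0.24 for Jag2 (SD, n = 4). Some single ratios were small: Jag1 had 0.061 in het 1 and 0.080 in KO 2, and Heyl -0.067 in KO 1. Heyl rested on 6 to 29 UMIs a library in endocardial-like and 8 to 14 in vascular-like cells. Hey2 split by library: its log2 ratios were -1.71 and -0.59 in the het libraries against 0.65 and 1.54 in the KO libraries. These ratios are a description, since the clusters were defined on other genes of the same cells.

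Within the cardiomyocyte-like cells, Hey2 followed the clusters. It averaged 136 ± 16.5 CPM over libraries in the cluster led by Ttn and Myom1, which had the deepest cells, 97.6 ± 19.2 in the cluster led by Mb and 65.5 ± 13.3 in the one led by Ankrd1 (unscaled CPM; SD, n = 4). In the cluster led by Cited1 and Nppa, genes known from trabecular myocardium, Hey2 averaged 35.1 ± 12.8 CPM (SD, n = 4; lowest 27.2, highest 54.1). As means of these clusters, Hey2 did not follow the trabecular markers, which were high in both the Cited1-led and the Ttn-led cluster. Their mean log2 fold over clusters poor in cardiomyocyte transcripts was 2.63 and 2.24, against 0.366 (Mb-led) and 0.888 (Ankrd1-led). At resolution 2, Ttn-led clusters of deep cells had folds of 2.84 (1520 cells) and 1.09 (931 cells). Hey2 was not read in these apart, so the means do not say which cells of the Ttn-led cluster held it. Nppa averaged 3606 ± 1967 CPM in the Cited1-led and 2627 ± 731 CPM in the Ttn-led cluster (SD, n = 4). In the cluster led by Myh6 and Sln, genes known from atrial muscle, Hey2 averaged 9.54 ± 5.55 CPM (SD, n = 4). The highest Cited1-led library lay just under the lowest library of the Ankrd1-led cluster (54.1 and 54.5 CPM). The Jagged ligands went the other way in that Myh6-led cluster, which had only 30 to 92 cells per library: Jag1 averaged 21.1 ± 7.12 CPM and Jag2 16.2 ± 4.54 CPM (SD, n = 4), against 8.79 ± 2.47 and 3.796 ± 0.355 CPM in the Ttn-led cluster and at most 2.12 and 0.362 CPM, as means, in the 4 other clusters present in all libraries.

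**Figure D2:**
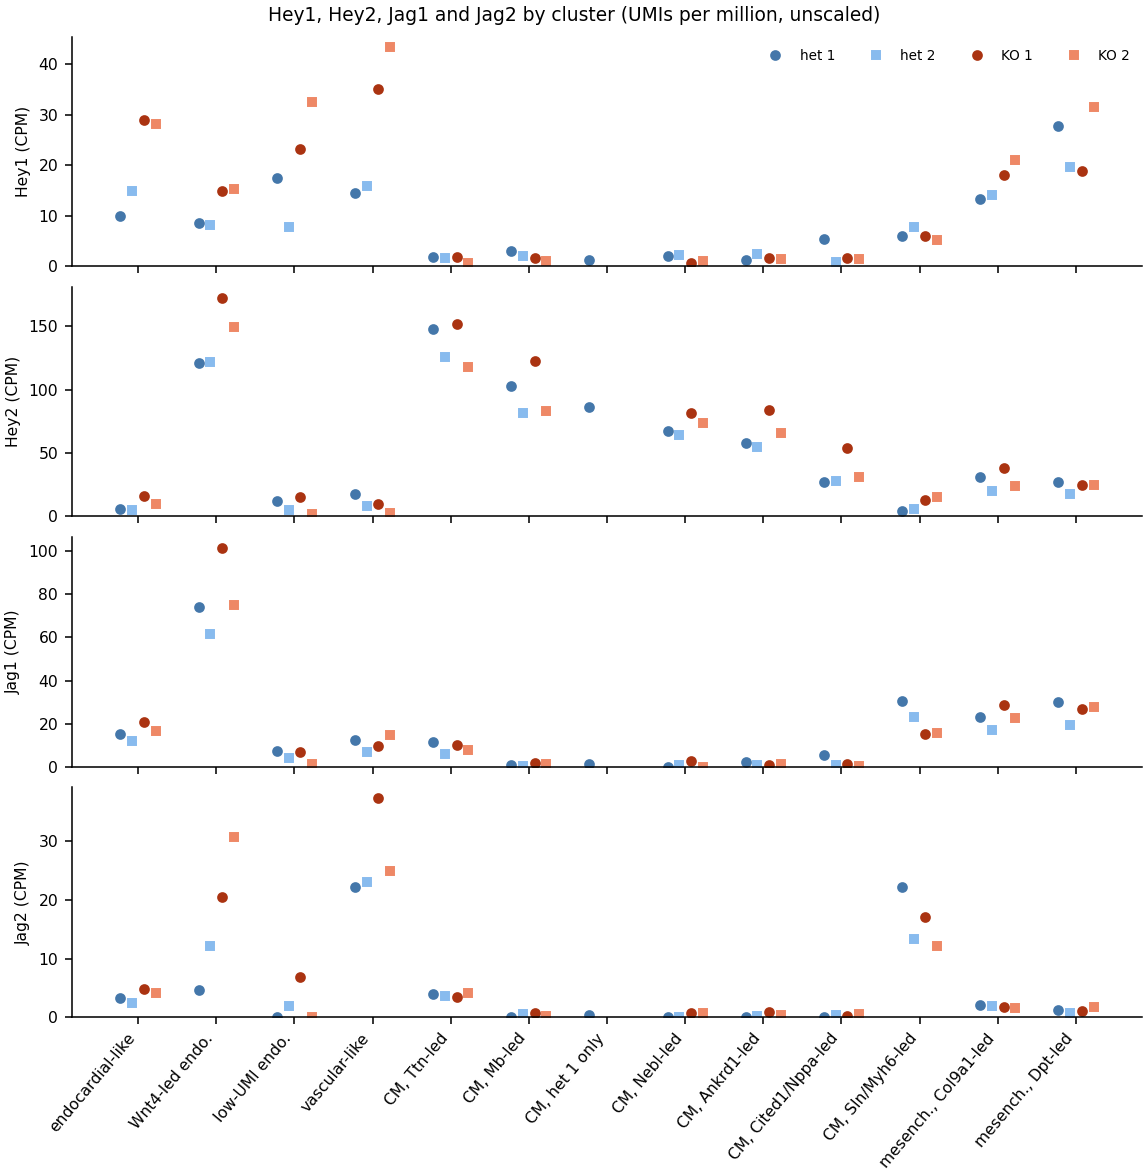
Hey1, Hey2, Jag1 and Jag2 by cluster (horizontal axis; CM, cardiomyocyte-like; endo., endothelial; mesench., mesenchymal-like), in unscaled CPM (vertical axes), 1 point per library with at least 20 cells there. Hey2 falls from the Ttn-led to the Cited1/Nppa-led and Sln/Myh6-led cardiomyocyte clusters, and Jag1 and Jag2 stand out among cardiomyocytes in the Sln/Myh6-led one.

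The genes whose level was most like each member's over the 28 sums (7 named classes in 4 libraries, log2 of CPM + 1, 8953 genes) were mostly genes of the same cell class. They are a description of where these genes are read, and sums of one library share its depth. Notch1 was most like Elk3 and Calcrl (r = 0.983 and 0.969), Notch4 like Adgrf5 and Sox7 (0.988 each) and Dll4 like Ushbp1 and Ldb2 (0.992 each). Jag2 was most like N4bp3 and Fabp4 (0.952 and 0.930), Mfng like Pdgfb and Hlx (0.969 each), and Hey1 like Bvht and Limch1 (0.974 and 0.970). Notch2 was most like Stk38 and Il1rap (0.941 and 0.939), Jag1 like Adgrl1 and Zfp532 (0.990 and 0.985), Hey2 like Armh4 and Gnao1 (0.967 and 0.966), and Heyl like Krt79 and Has2 (0.969 each).

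The comparison the study was built for, KO against het, was then made in each class on UMIs summed per library and cell class, with edgeR's quasi-likelihood test over all genes that passed a filter on low counts and Benjamini-Hochberg adjustment. In endocardial-like cells all 10 genes were tested, and none passed an adjusted p of 0.05, where 3 of 14324 genes did (0.0209%). Of the 10, 8 had estimates above 0 and 3 an unadjusted p under 0.05, against 7314 and 672 of the 14324, and their median log2 difference was 0.28 against 0.0051 over all genes. The KO and het libraries did not overlap for 5 of the 10, each time with KO higher, and did not overlap for 28.9% of all genes tested. The 10 genes were chosen with earlier results of these data known. These counts, here and in the other classes, are therefore a description and not evidence about the set.

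Hey1 and Hey2 had the largest differences of the 10. In endocardial-like cells Hey1 read 9.12 and 15.9 CPM in the het libraries against 27.7 and 29.8 CPM in the KO libraries. Both KO libraries stood above both het libraries, and the 2 het libraries differed from each other more than the KO libraries did. The log2 difference was 1.165 with a standard error of 0.25 (2.24-fold; unadjusted p = 0.0017, edgeR adjusted p = 0.389). The call depended on the method: DESeq2 gave an adjusted p of 0.0499, 6 of the 12 alternatives passed the threshold, and adjusted p ran from 0.000296 to 0.9996 over them. Without het 1 the difference was 0.88 (adjusted p = 0.125) and without het 2 it was 1.63 (adjusted p = 0.000592). Per cell, thinned to 2000 UMIs, 1.97% (exact 95% binomial interval 0.824 to 4.16) and 2.80% (1.61 to 4.36) of endocardial-like cells of het 1 and het 2 held a Hey1 UMI, against 5.91% (4.12 to 7.99) in KO 1 and 5.26% (3.29 to 8.12) in KO 2. In erythroid-like cells, a blood lineage taken as the background for free RNA, that share was 0.0308 to 0.141%, at median depths of 11960 to 28450 UMIs, and in cardiomyocyte-like cells it was 0.2245 to 0.473%, at 3457 to 6271 UMIs. Before thinning the endocardial-like shares were 10.1, 21.6, 27.1 and 38.4%, at median depths of 10484, 19659.5, 14417.5 and 27106 UMIs. The 13 endothelial markers made up 0.657 and 0.629% of endocardial-like UMIs in het and 0.693 and 0.714% in KO libraries; their part in the difference was not tested.

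Hey2 read 5.11 and 5.83 CPM in the endocardial-like cells of the het libraries and 15.8 and 10.1 CPM in those of KO 1 and KO 2. The groups did not overlap, and KO 1 stood highest. The log2 difference was 1.235 with a standard error of 0.29 (unadjusted p = 0.00298, edgeR adjusted p = 0.491), and 4 of 12 alternatives called it. With all endothelial clusters summed the Hey2 difference was -0.13. That sum includes the Hey2-rich Wnt4-led cells, which numbered 720 and 406 in het and 259 and 112 in KO libraries. The het libraries held more shallow cells among them, as given below for that cluster. The part of this cell mix in the change of sign was not tested. Cardiomyocytes are full of Hey2, so the share of UMIs from cardiomyocyte markers matters beside the endocardial-like difference: it was 0.184 and 0.147% in the het libraries against 0.211 and 0.1% in the KO libraries. Scaled to the Hey2 level of the cardiomyocyte-like cells of the same library, that share would hold 2.48, 1.94, 3.33 and 1.12 CPM of Hey2, which leaves 3.05 and 3.49 CPM in the het and 13.2 and 8.43 CPM in the KO libraries. This is arithmetic on marker shares: the part of RNA from cardiomyocytes, or from the Hey2-rich Wnt4-led cells, in the difference was not tested.

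The 3 other genes whose libraries did not overlap in endocardial-like cells differed less. Jag1 read 13.9 and 12.8 CPM in het and 19.9 and 17.4 CPM in KO libraries (log2 difference 0.50, SE 0.20; unadjusted p = 0.0374, edgeR adjusted p = 0.9998). With all endothelial clusters summed the Jag1 difference was 0.0285. That sum too includes the Wnt4-led cells, which are rich in Jag1, and their part was not tested. Fewer of them were counted in KO libraries, shallow ones above all, as given below for that cluster. Jag2 read 3.10 and 2.60 against 4.62 and 4.41 CPM (0.70, SE 0.32), and Notch4 35.01 and 33.8 against 43.3 and 42.2 CPM (0.32, SE 0.16). Neither had an unadjusted p under 0.05 by edgeR's test (0.0628 and 0.0877). Notch1 and Dll4, the receptor and ligand most studied in this tissue, overlapped between groups. Notch1 read 306 and 249.7 CPM in het and 276 and 259 CPM in KO libraries (log2 difference -0.05, SE 0.20), and Dll4 30.6 and 25.7 against 28.2 and 28.5 CPM (0.02, SE 0.19). Mfng (-0.28, SE 0.21) and Notch2 (0.07, SE 0.25) overlapped too, and Heyl was at 1.09 to 2.26 CPM in all 4 libraries.

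In vascular-like cells 9 genes were tested and none passed, where edgeR called 0 of 11551 genes (0%), 721 had an unadjusted p under 0.05 and DESeq2 called 8. Hey1 was again the gene with the lowest p of the 9. It read 14.8 and 16.3 CPM in the het libraries against 33.5 and 43.6 CPM in the KO libraries, with both KO libraries above both het libraries. The log2 difference was 1.31 with a standard error of 0.23 (unadjusted p = 0.00036, edgeR adjusted p = 0.513), and 4 of 10 alternatives called it, with adjusted p from 0.000156 to 0.622. Thinned to 2000 UMIs, 2.87 and 2.73% of the vascular-like cells of the het libraries held a Hey1 UMI, and 6.89 and 6.88% of those of the KO libraries, with exact intervals that overlapped (1.29 to 5.27 and 0.778 to 7.10, against 3.31 to 12.2 and 2.17 to 14.7).

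Notch1 and Dll4 differed in vascular-like cells by about as much as each other. Notch1 read 128.5 and 141 CPM in het and 200.5 and 187 CPM in KO libraries (log2 difference 0.53, SE 0.17; unadjusted p = 0.0124, edgeR adjusted p = 0.632). Dll4 read 54.1 and 64.7 CPM in het and 103.4 and 74.5 CPM in KO libraries (0.59, SE 0.20; unadjusted p = 0.0156, edgeR adjusted p = 0.66). Neither was called in any of 10 alternatives. The 2 groups also differed there in how much of the RNA was endothelial: the 13 endothelial markers made up 0.409 and 0.469% of UMIs in het and 0.549 and 0.537% in KO libraries, and cardiomyocyte markers 1.11 and 0.361% against 0.262 and 0.0703%; their part in these differences was not tested. Notch4 (47.4 and 49.4 against 69.9 and 56.7 CPM) and Jag2 (22.5 and 23.8 against 35.5 and 25.2 CPM) did not overlap either, so 5 of the 9 genes had KO libraries above het libraries, and 34.3% of all genes tested did not overlap in one direction or the other. Mfng, at 70.7 and 89.8 against 76.2 and 70.4 CPM, overlapped.

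Hey2 went the other way in vascular-like cells, with overlap: 18.1 and 8.21 CPM in het and 9.23 and 2.55 CPM in KO libraries (log2 difference -1.06, SE 0.56; unadjusted p = 0.0917, edgeR adjusted p = 0.898). The cardiomyocyte-marker share given above would hold 14.9, 4.76, 4.12 and 0.784 CPM of Hey2 in het 1, het 2, KO 1 and KO 2, or 83.4, 59.7, 42.6 and 31.0% of what was read. This leaves 2.97 and 3.215 CPM in the het and 5.56 and 1.75 CPM in the KO libraries, with the het values between the KO values. The part of that share in the difference was not tested. Without het 1 the difference was -0.40, and Hey2 passed the threshold without het 2 (-1.59, edgeR adjusted p = 0.00801) and without KO 1 (-2.30, edgeR adjusted p = 0.0264).

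**Figure D3:**
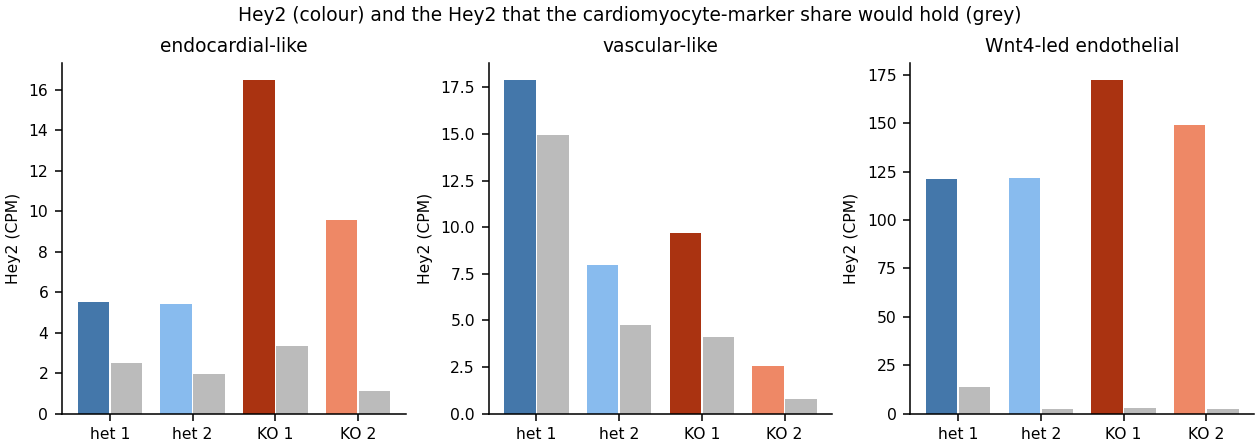
Hey2 in unscaled CPM (vertical axis, coloured bars) in each library (horizontal axis) of the endocardial-like, vascular-like and Wnt4-led cells, beside the Hey2 that the library's cardiomyocyte-marker share would hold (grey bars). The grey bar is most of the Hey2 read in vascular-like cells of het 1 (14.9 of 17.9 CPM) and het 2 (4.76 of 7.97 CPM). It is 42.6 and 31.0% of it in those of KO 1 and KO 2, and a small part in every Wnt4-led library.

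The Wnt4-led endothelial cluster was compared in the same way, a choice made after the data were seen. It is the endothelial cluster with the most Hey2 and Jag1. No gene of 13057 was called there (0%; edgeR), and 541 had an unadjusted p under 0.05; DESeq2 was not run on it. Of the 10 members, 6 had both KO libraries above both het libraries, where 30.5% of all genes did not overlap. Hey2 read 118 and 128 CPM in het libraries against 165 and 151.5 CPM in KO libraries (log2 difference 0.38, SE 0.15; unadjusted p = 0.0447, edgeR adjusted p = 0.9996). Hey1 read 8.26 and 8.67 against 14.2 and 15.6 CPM (0.82, SE 0.23; unadjusted p = 0.01), and Jag2 4.47 and 12.8 against 19.6 and 31.2 CPM (1.505, SE 0.46; unadjusted p = 0.0142). Jag1 read 72.4 and 64.9 against 97.2 and 76.3 CPM, and Notch4 and Dll4 also did not overlap. Notch1 overlapped, at 264, 288, 326 and 274 CPM. The cluster's share of the endothelial markers was 0.426, 0.516, 0.548 and 0.544% in het 1, het 2, KO 1 and KO 2. In the same order its cardiomyocyte-marker share was 1.02, 0.193, 0.183 and 0.197%, and its median depth 4035, 17470.5, 16401 and 24971.5 UMIs. At resolution 2, a shallow Wnt4-led cluster (median 3016 UMIs, 2.65% cardiomyocyte markers) held 417, 116, 13 and 9 cells. A deeper one (16967 UMIs, 0.146%) held 299, 292, 247 and 106. The part of these in the differences was not tested.

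Cardiomyocyte-like and mesenchymal-like cells read less of the EGFP reporter than the endothelial classes (34.9 to 69.4 and 385 to 673 CPM) and were compared in the same way. In cardiomyocyte-like cells edgeR called 0 of 16314 genes (0%), 189 had an unadjusted p under 0.05 and DESeq2 called 0. None of the 9 members tested had an unadjusted p under 0.05. Hey2, the member these cells are rich in, read 103 and 102 CPM in het libraries against 112.6 and 94.9 CPM in KO libraries (log2 difference 0.01, SE 0.18), so that the het libraries lay between the KO libraries. Notch2 was 7.14 and 7.03 against 5.59 and 5.08 CPM (-0.41, SE 0.22), one of 3 members with KO below het in both libraries, where 19.9% of all genes did not overlap. The other 2, Hey1 and Notch4, were below 2 CPM there.

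In mesenchymal-like cells edgeR called 0 of 15581 genes (0%), 213 had an unadjusted p under 0.05 and DESeq2 called 2. These cells read the dsRed sequence at 415 to 519 CPM beside their EGFP, where endocardial-like cells read 69.8 to 96.3 CPM of dsRed. Cells with and without EGFP were not compared apart. Of the 8 members tested none had an unadjusted p under 0.05, and 1 did not overlap between groups, against 20.9% of all genes. That gene was Jag1, at 24.6 and 18.4 CPM in het and 26.7 and 25.5 CPM in KO libraries (log2 difference 0.30, SE 0.18). Heyl differed between the het libraries, at 48.1 and 24.5 CPM, with KO 1 and KO 2 at 47.7 and 36.9 CPM. In the order het 1, het 2, KO 1, KO 2, Notch1 read 133, 84.5, 126.7 and 106 CPM, Notch2 68.9, 57.8, 63.4 and 55.1 CPM, Hey2 28.7, 19.9, 31.9 and 25.4 CPM and Hey1 17.8, 16.5, 17.5 and 25.9 CPM. Het 2 was lowest for Notch1, Heyl and Hey2 alike.

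**Figure D4:**
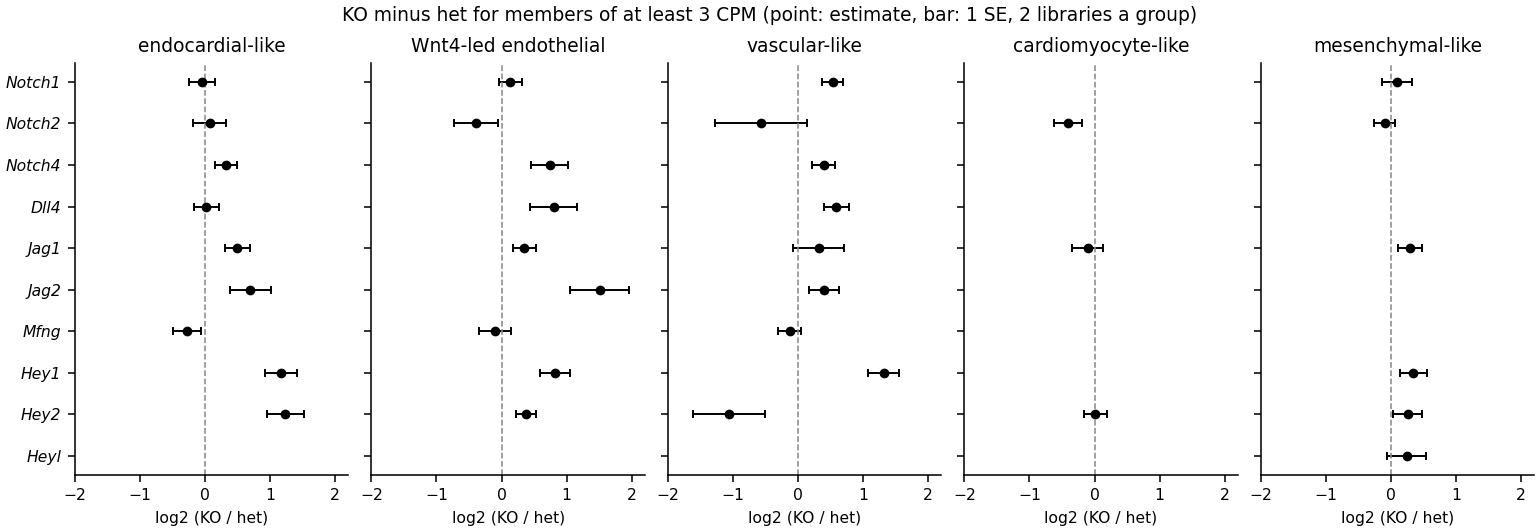
KO minus het (horizontal axes, log2; points are edgeR estimates and bars 1 standard error, 2 libraries a group) for members of at least 3 CPM in each of 5 cell groups. Hey1 lies right of 0 in the endocardial-like, Wnt4-led and vascular-like cells (1.165, 0.82 and 1.31), and Hey2 lies right of 0 in the first 2 and left of it in vascular-like cells (-1.06).

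Whether the differences themselves differed between classes was tested with both classes of each library in one fit. Between endocardial-like and vascular-like cells 15 of 13428 genes passed (0.112%), none of them a member. The Hey1 differences in the 2 classes were close, with a difference of -0.15 (SE 0.25; edgeR adjusted p = 0.869), which does not show that they were equal. Hey2 differed by 2.22 on the log2 scale (SE 0.47; unadjusted p = 0.00071, edgeR adjusted p = 0.115), beside the cardiomyocyte-marker shares given above, whose part in it was not tested. Notch1 and Dll4 differed by -0.57 (SE 0.16; unadjusted p = 0.00501, edgeR adjusted p = 0.237) and -0.54 (SE 0.22; unadjusted p = 0.0342, edgeR adjusted p = 0.413). When a library was left out, Hey2 passed in 2 of 4 cases and Notch1 and Dll4 in 1 each. Between endocardial-like and cardiomyocyte-like cells 5 of 16800 genes passed (0.0298%), again none of them a member. Hey1 differed there by 1.54 (SE 0.33; edgeR adjusted p = 0.202) and Hey2 by 1.16 (SE 0.25; edgeR adjusted p = 0.213). Hey1 passed without KO 1 (1.915, edgeR adjusted p = 0.0272) and in none of the 3 other cases, with differences from 1.26 to 1.93 over the 4; Hey2 passed in none.

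The 61 other pathway genes were compared in the same fits. Their lists, like the members, were chosen with earlier results of these data known, so the counts are a description. In endocardial-like cells 55 of the 61 genes were tested and none passed, where 3 of all 14324 genes did. Under an unadjusted p of 0.05 by edgeR's test were 672 of the 14324. Of the 55 genes, 10 had an unadjusted p under 0.05, all higher in KO libraries. By list, 5 of these 10 were among the 14 tested genes linked to Notch in endocardium, arteries and trabeculation (median log2 difference 0.23), and 2 of 5 among direct targets outside Hey (0.22). The other 4 lists held 1, 1, 1 and 0 (receptors and ligands outside the members, glycosyltransferases and processing, the nuclear complex, and endocytosis), with medians from -0.01 to 0.24. The 3 genes of lowest p were all of the first list. Unc5b, a netrin receptor of arterial and tip endothelium, read 7.48 and 8.35 CPM in het and 25.9 and 23.2 CPM in KO libraries (log2 difference 1.63, SE 0.20; unadjusted p = 4.36e-05, edgeR adjusted p = 0.0639). Acvrl1, the endothelial BMP receptor ALK1, read 14.22 and 14.04 against 36.5 and 42.4 CPM (1.49, SE 0.18; edgeR adjusted p = 0.0639). Gja5, the arterial and trabecular gap-junction protein connexin 40, read 2.92 and 6.11 against 18.4 and 29.3 CPM (2.31, SE 0.35; edgeR adjusted p = 0.174). Each of the 3 was called by 7 of 12 alternatives, DESeq2 among them, and Unc5b had a difference of -0.10 in the Wnt4-led cluster.

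In vascular-like cells 53 pathway genes were tested and none passed, where edgeR called 0 of all 11551 genes. Of the 11551, 721 had an unadjusted p under 0.05, against 8 of the 53. All 8 with an unadjusted p under 0.05 were of the same list, whose 14 tested genes had a median log2 difference of 0.59; of the 8, 7 had estimates above 0 and Nrg1, a growth factor of endocardium, one of -1.86 (it is named here after its value was seen). Unc5b read 49.8 and 65.8 CPM in het and 120.7 and 109 CPM in KO libraries (0.99, SE 0.18; edgeR adjusted p = 0.513), Cxcr4, a chemokine receptor of growing vessels, 9.53 and 11 against 22.2 and 20.4 CPM (1.05, SE 0.24), and Gja5 3.08 and 4.27 against 8.31 and 18.5 CPM (1.82, SE 0.46). In cardiomyocyte-like cells none of 56 tested genes had an unadjusted p under 0.05, against 189 of all 16314. The 3 of lowest p were Bmp10 (0.41, SE 0.24), Tle1 (-0.38, SE 0.24) and Tgfb2 (-0.38, SE 0.26). In mesenchymal-like cells 1 of 56 had an unadjusted p under 0.05, against 213 of all 15581. This was Efnb2, an ephrin ligand of arteries, at 22.8 and 21.5 CPM in het and 16.2 and 14.6 CPM in KO libraries (-0.52, SE 0.16; unadjusted p = 0.0122, edgeR adjusted p = 1). Notch3 (0.33, SE 0.17) and Bmp2 (-0.25, SE 0.14) followed.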

How the data were processed

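Values in the deposited files are UMI counts, not normalized, for each gene in each barcode; Cell Ranger 6.0.1 made them, per the file headers, and mm10 and Seurat are named in the submitters' processing notes. The labels' protocols name 2 different 10x kits. Barcodes with at least 500 genes and under 20% mitochondrial UMIs were kept, and doublets were removed with Scrublet in scanpy 1.11.5 (93 to 608 per library; in het 1 and KO 2 it set no usable threshold, and the median of the other 2, 0.323, took its place). Clusters came from 2000 variable genes without the 10 members, 30 components and Leiden modularity in igraph 0.11.9 at resolution 1 (43 clusters), and were named where a list's markers had a mean log2 fold of at least 1, at least 3 were detected and a marker was among the 10 leading genes. Cardiomyocyte-like clusters also needed a cardiomyocyte-marker share of at least 5% of UMIs and other clusters one under 1%; all needed a globin share under 5%, and erythroid-like clusters were exempt from the last 2 limits.

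UMIs were summed per library and class and tested with edgeR 4.0.16 (filterByExpr, TMM), 2 libraries against 2, with no replicate block. Shares of cells are means over all thinnings to 2000 UMIs; their intervals use the rounded number of cells and cover counting error only. On simulated counts for endocardial-like cells, the test recovered 58% of 2-fold and 100% of 4-fold changes among 14306 genes with 9 false calls. The changed genes, 100 for each fold, all had a mean above 20 CPM, and every gene was given the same dispersion. Hey2, Jag1 and Jag2, among others, averaged 9.19, 16 and 3.68 CPM in those cells, so these rates do not cover them. Alternatives were DESeq2 1.42.0, library size alone, no filter, a replicate block, leaving out each library, cells of at least 3000 UMIs, other clusterings and other clusters. Alternatives were computed, and differences plotted, for members of at least 3 CPM in a class; that limit was set after the values were seen. The 10 members and all lists were chosen with earlier results of these data known. Named pathway genes are those passing the test, or else the 3 of lowest p per class; the 2 genes most like a member are those of highest Pearson r for members reaching 20 CPM.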

Additional observations from a re-analysis of the deposited data

Results flagged for a closer look

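For Hey1 and Notch4, both KO libraries lay above both het libraries in the endothelial classes and below them in cardiomyocyte-like cells. Neither gene passed edgeR's test in any of these classes. Of all genes tested, 28.9% in endocardial-like, 34.3% in vascular-like and 19.9% in cardiomyocyte-like cells did not overlap, in either direction. How many genes had opposite directions in this way was not counted. Hey1 had a KO minus het log2 difference of 1.165 in endocardial-like and 1.31 in vascular-like cells. In cardiomyocyte-like cells it was -0.40 (SE 0.34), where Hey1 was read at 1.11 to 1.91 CPM. Notch4 had 0.32 and 0.40 in the same 2 endothelial classes and -0.29 (SE 0.42) in cardiomyocyte-like cells, where it was below 1 CPM (22 to 45 UMIs a library). The endothelial-marker share of the cardiomyocyte-like cells was 0.00652 and 0.00474% in het and 0.0068 and 0.00313% in KO libraries; its part was not tested. Against the endocardial-like cells the difference was tested and neither gene passed (1.54, edgeR adjusted p = 0.202 for Hey1, and 0.56, edgeR adjusted p = 1 for Notch4); against the vascular-like cells it was not tested.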

How the results depend on the processing

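With 2 libraries a group, the number of genes called moved with nearly every choice, and the cause was not tested. In endocardial-like cells, 3 genes became 41 with DESeq2, 0 with library size alone, 182 with no filter, 479 with the replicate block, 5 in cells of at least 3000 UMIs, 0 with all endothelial clusters summed, 0 in the Wnt4-led cluster and 94 to 132 when a library was left out. In vascular-like cells, 0 became 8 with DESeq2, 251 with no filter, 207 with the block and 1 to 276 when a library was left out. In cardiomyocyte-like cells 0 became 30 with no filter, 22 with the block and 1 to 25 without a library, and in mesenchymal-like cells 2 with DESeq2, 47 with no filter, 102 with the block and 0 to 53 without a library. Between classes, the counts ran from 2 to 871 (vascular-like) and 0 to 28 (cardiomyocyte-like) without a library. The labels give the groups the same replicate numbers without saying what they mark; across genes, same-numbered libraries deviated together (r = 0.397 to 0.482, 2 pairs), and with the block Hey1 was called in endocardial-like and vascular-like cells and Hey2 in endocardial-like cells. Some differences changed sign, the 2 largest of them Hey2 (1.235) and Unc5b (1.63) in endocardial-like cells. In those cells they were Dll4 (-0.000332 with library size alone, -0.00466 at resolution 2, -0.14 to 0.17 without a library), Notch1 (0.10 with all endothelial clusters, 0.13 in the Wnt4-led cluster, -0.22 to 0.13 without a library), Notch2 (-0.14, -0.39, and -0.25 to 0.38), Hey2 (-0.13 with all endothelial clusters) and Unc5b (-0.10 in the Wnt4-led cluster). The sum of all endothelial clusters held fewer Wnt4-led cells in KO than in het libraries, shallow ones above all, and the part of this was not tested. Without a library, vascular-like Notch2 ran from -1.40 to 0.79, Jag1 from -0.10 to 0.75 and Mfng from -0.27 to 0.0224, and cardiomyocyte-like Hey2 from -0.13 to 0.14 (-0.0469 with library size alone), Jag1 from -0.30 to 0.0658 and Tgfb2 from -0.77 to 0.0787. Mesenchymal-like Notch2 ran from -0.24 to 0.0424 (0.00585 at resolution 2), Notch1 from -0.22 to 0.47, Hey2 from -0.0254 to 0.53 and Heyl from -0.21 to 0.80; in the Col14a1-led clusters, Notch1, Hey2, Heyl, Efnb2 and Bmp2 were at -0.22, -0.20, -0.50, 0.00752 and 0.26. The endocardial-like against vascular-like ratio of Hey2 was 0.14 at resolution 2 and 0.26 with the members among the variable genes. Hey1 kept its direction in all 12 endocardial-like and 10 vascular-like alternatives. Leaving out a library leaves 1 library in a group, whose spread is assumed to be that of the other group.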
